A study of Mus musculus with 4 samples.

Results

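The genes described here are the translation initiation and elongation factors of the mouse, taken as every gene symbol that begins with Eif1 to Eif6 or with Eef1 or Eef2. Pseudogene symbols ending in -ps were to be left out, and there were 0 of them in the tables. The rule found 66 genes of 22072 gene symbols, and it used no measured value. It also takes in genes that carry such a symbol and act elsewhere, namely the Argonautes Eif2c1 to Eif2c4, the exon junction helicase Eif4a3 and the nuclear protein gene Eif1ad, which were kept as a class of their own.

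The study compared molar tooth mesenchyme, the condensed neural crest-derived connective tissue under the tooth bud, between control and Bmp4 mutant mouse embryos at embryonic day 13.5. There were 4 RNA sequencing libraries of laser-captured tissue, 1 each for the upper and lower molar of control (Bmp4f/+) and mutant (Bmp4f/f;Wnt1Cre) embryos. All were of mixed background, tissue of 3 pairs was pooled before RNA extraction, and each library is therefore 1 pool. The Wnt1Cre transgene deletes floxed alleles in neural crest-derived cells, so a cell of another origin within the captured tissue would keep Bmp4, and the labels name no Cre for the control, which carries 1 floxed allele.

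Translation of an mRNA starts when eIF2 brings the initiator tRNA to the small ribosomal subunit, eIF3 holds the complex together, and eIF4F binds the cap and unwinds the leader until a start codon is found. Elongation then runs on eEF1, which delivers aminoacyl-tRNA, eEF2, which moves the ribosome by a codon, and eIF5A, which relieves stalled ribosomes. Control acts mainly at eIF2, whose phosphorylation by stress kinases blocks its exchange factor eIF2B, and at eIF4E, which is held back by 4E-binding proteins until mTORC1 phosphorylates them. Both controls act on proteins and are not read by RNA levels.

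The libraries held between 4820000 and 5550000 approximate reads on transcripts, estimated from the deposited coverage, and between 10444 and 10463 genes at 1 FPKM or more (fragments per transcript kilobase, relative to all mapped reads). Bmp4 itself was at 24.8 and 27.2 FPKM in the control libraries, upper molar first, and at 4.75 and 4.90 FPKM in those of the mutant, a log2 difference of -2.21 ± 0.107 (standard error; limma, adjusted p = 0.000799). All 8 dental mesenchyme markers looked at were above 1 FPKM on average and summed to between 635 and 719 FPKM. Markers of other cells summed to between 19.6 and 22.0 FPKM for epithelium (6 genes), 28.1 and 38.7 for endothelium (6), 588 and 733 for red blood cells (6), 1.41 and 2.12 for muscle (7, with Ckm at 0 in all libraries) and 2.37 and 7.98 for neurons (6). Fewer cells of a type and less RNA per cell cannot be told apart in such bulk samples.

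Many mRNAs of the translation machinery begin with a run of pyrimidines (C or T in the DNA), the terminal oligopyrimidine element through which mTORC1 acts on their translation. RefSeq start windows were found for 52 of the 66 genes on the mouse build GRCm38.p6, and 6 of them are printed as picked examples. They begin with Eif3f, which has a long run at the start, the 2 sex-linked copies of the eIF2 gamma gene and the most abundant member. The last 2, Eif3a and Eif4ebp2, have no such run and read lower in the mutant. Other members without a run, such as Eef1b2 and Eif1ax, read higher. Each line gives 15 bases before the annotated start and 15 from it on the gene's strand, 5′ to 3′, and capitals mark the longest run of C or T.
Eif3f (chr7:108934400-108934429, plus strand): tctgttctaggCTCTCTCTCTTTCTCggca
Eif2s3x (chrX:94212637-94212666, minus strand): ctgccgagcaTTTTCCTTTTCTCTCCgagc
Eif2s3y (chrY:1010580-1010609, plus strand): gcggaggccacagccaCTTCCTTCTTTCgt
Eef1a1 (chr9:78481710-78481739, minus strand): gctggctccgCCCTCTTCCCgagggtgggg
Eif3a (chr19:60790679-60790708, minus strand): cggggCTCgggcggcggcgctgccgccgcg
Eif4ebp2 (chr10:61452655-61452684, minus strand): ggtaTCgcagcgggacgaccgggcgagagc

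The runs were 15 bases long in Eif3f, 16 in Eif2s3x, 12 in Eif2s3y and 10 in Eef1a1, against 3 in Eif3a and 2 in Eif4ebp2. A run of at least 8 pyrimidines lay within 30 bases of a start, on the gene's strand, in 15 of the 52 translation factor genes (28.8%), against 25.8% of 27025 mouse genes. On the opposite strand, where such a run is no such element, the shares were 28.8% and 28.7%. By this rule the family was close to all genes at the annotated start. The rule passed similar shares of genes on the opposite strand, so it cannot show whether these mRNAs carry the element more often. No window was found for Eif3e, Eif3h and Eef1g, among others. The 15 genes with a run include Eef1a2, which was at 0 FPKM in every library and was not tested. Of those tested, 6 had both mutant libraries above both controls (Eef1a1, Eef2, Eif2b5, Eif3f, Eif3l and Eif3m). So did 18.4% of all genes tested and 25.4% of the translation factor genes tested. Both mutant libraries lay below both controls in 4 (Eif2b2, Eif2s3x, Eif4e and Eif4enif1), where 23.1% and 28.6% did. As the rule does not single out mRNAs with the element, these counts do not describe such a group.

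Most of the machinery was abundantly expressed in the tooth mesenchyme. Averaged over the 4 libraries, 5 genes were at 100 FPKM or more (Eef1a1, Eef1g, Eef2, Eif4a1 and Eif5a), 36 lay between 10 and 100 FPKM, 22 between 1 and 10, and 3 under 1. Together the 66 genes took 1.91%, 2.02%, 1.98% and 2.16% of all FPKM in the control upper, control lower, mutant upper and mutant lower molar, the order in which values of 4 libraries are given from here on. The 3 genes under 1 FPKM were Eef1a2, the eEF1A copy of muscle and neurons, and Eif4e1b, an eIF4E copy of the oocyte, both listed at 0 in every library, and the Argonaute Eif2c4 at 0.565, 0.455, 0.366 and 0.461 FPKM. A count of 0 with a limit of 3 reads per library allows up to 0.112 FPKM of Eef1a2 and up to 0.121 FPKM of Eif4e1b, counting error only. These 3 were not tested, which leaves 63.

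**Figure D1:**
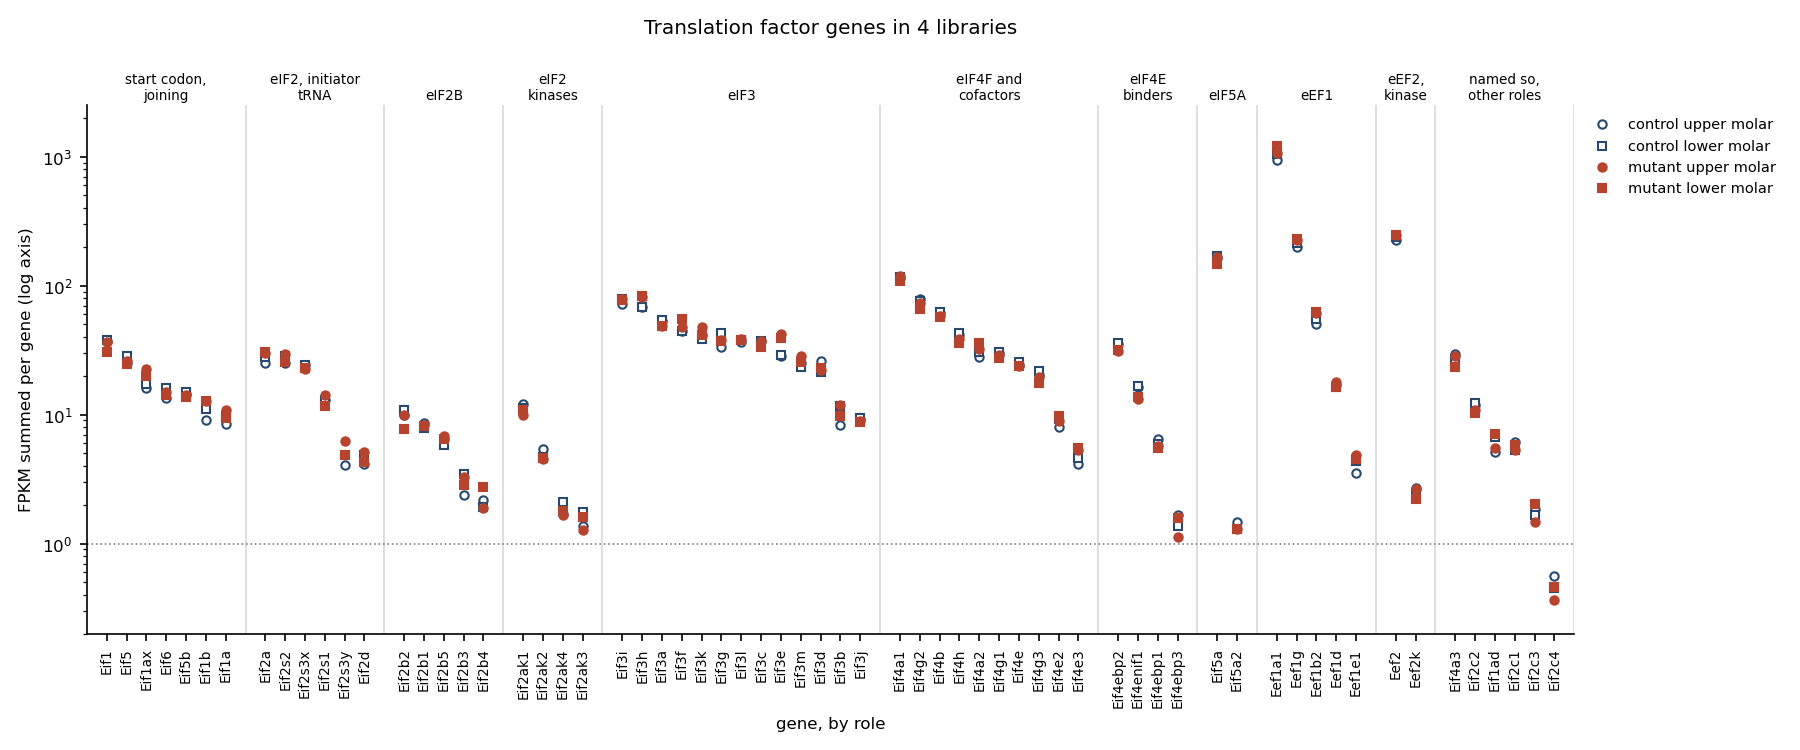
FPKM of each translation factor gene (log axis) in the 4 libraries, grouped by role, with circles for the upper and squares for the lower molar and open or filled symbols for control or mutant; Eef1a2 and Eif4e1b, at 0, are not drawn and the dotted line is at 1 FPKM. Levels run from under 1 FPKM for Eif2c4 to between 949 and 1212 FPKM for Eef1a1, and the 4 symbols of a gene lie close together.

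The first comparison asked which of these genes differed between Bmp4 mutant and control mesenchyme over both molars. None of the 63 was called by limma at an adjusted p of 0.05, with 0 higher and 0 lower, while 84 of all 10502 genes tested were called, a background of 0.800% (0.343% higher and 0.457% lower). The smallest adjusted p of a translation factor gene was 0.139, for Eif3e. At an unadjusted p under 0.05 there were 5 (Eif1ax, Eif1b, Eif3e and Eif3h with higher and Eif4enif1 with lower values in the mutant), or 7.94% against 13.2% of all genes (6.68% higher and 6.51% lower). Their median log2 difference, taken on FPKM + 1 as are all log2 differences here, was -0.011, against -0.015 for all genes tested. All 63 intervals of 95% lay within a 2-fold difference either way, the widest bounds being -0.55 and 0.73, and 51 lay within 0.5 on the log2 scale. With 1 residual degree of freedom, p-values and intervals rest on the disagreement between the molars and on genes of similar level, and not on the spread between embryos or pools.

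Within a molar, where 1 library stands against 1 and no test was made, differences were of the size seen in other genes. The absolute log2 difference between genotypes had a median of 0.14 in each molar, against 0.15 (upper) and 0.16 (lower) over all genes tested. Members ran from -0.34 to 0.53 in upper molars and from -0.44 to 0.42 in lower ones. None differed 2-fold in either, where 1.01% and 1.10% of all genes did. The ratio of the highest to the lowest of the 4 libraries had a median of 1.22 over the 63 genes, against 1.3 over all genes, and Eif2s3y was the sole gene over 1.5.

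**Figure D2:**
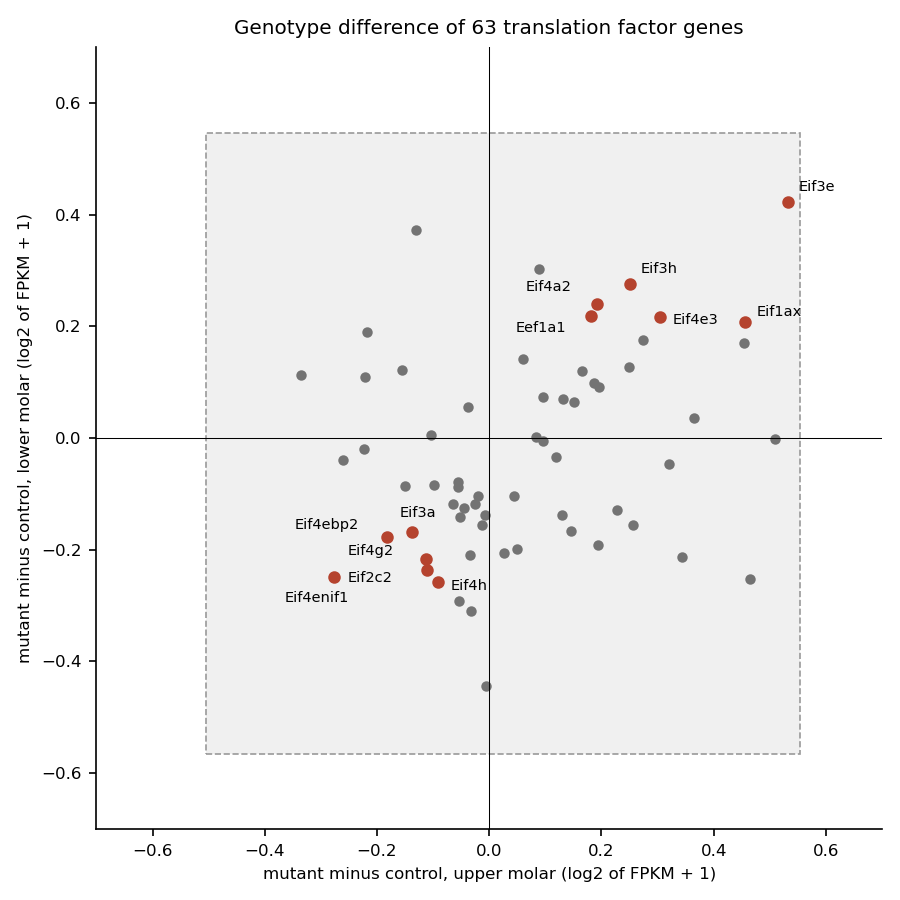
Log2 difference, mutant minus control, of 63 translation factor genes in the upper molar (horizontal axis) against the lower molar (vertical axis), 1 library per genotype and molar; named genes are in red and the shaded box spans the central 95% of all 10502 genes in each molar. All 63 points lie inside the box, with Eif3e, at 0.53 and 0.42, nearest to its upper corner.

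By direction alone, 19 of the 63 genes were higher in the mutant of both molars and 23 lower in both, where 27.2% and 32.4% of all genes were. Another 14 were higher between upper and lower between lower molars, and 7 the reverse, where 25.9% and 14.3% of all genes were. Genes whose 2 mutant values both lay above both control values numbered 16 of 63, where 18.4% of all genes tested did so (25.4% of these). Genes with both mutant values below both controls numbered 18, where 23.1% of all genes did so (28.6% of these). After each library was rescaled by its median ratio the counts were 20 and 16, against 21.2% and 21.1% of all genes. The first set held 4 of the 5 tested eEF1 genes, Eef2 and the eIF3 subunits e, f, h, l and m. The second held Eif3a, Eif3j, the scaffolds Eif4g1 to Eif4g3 and the 4E-binding genes Eif4ebp1, Eif4ebp2 and Eif4enif1. The median transcript length was 1677 bases in the first set and 3626 in the second, and it was 2359 and 3636 bases for all genes with these patterns.

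Length and difference were related across genes in these libraries. Over the 63 genes, Spearman's rho between transcript length and the genotype difference was -0.439 for upper molars and -0.267 for lower ones, and over all 10502 genes it was -0.225 and -0.121. These are descriptions across genes that share the same libraries. The part of transcript length in the genotype differences below was not tested.

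**Figure D3:**
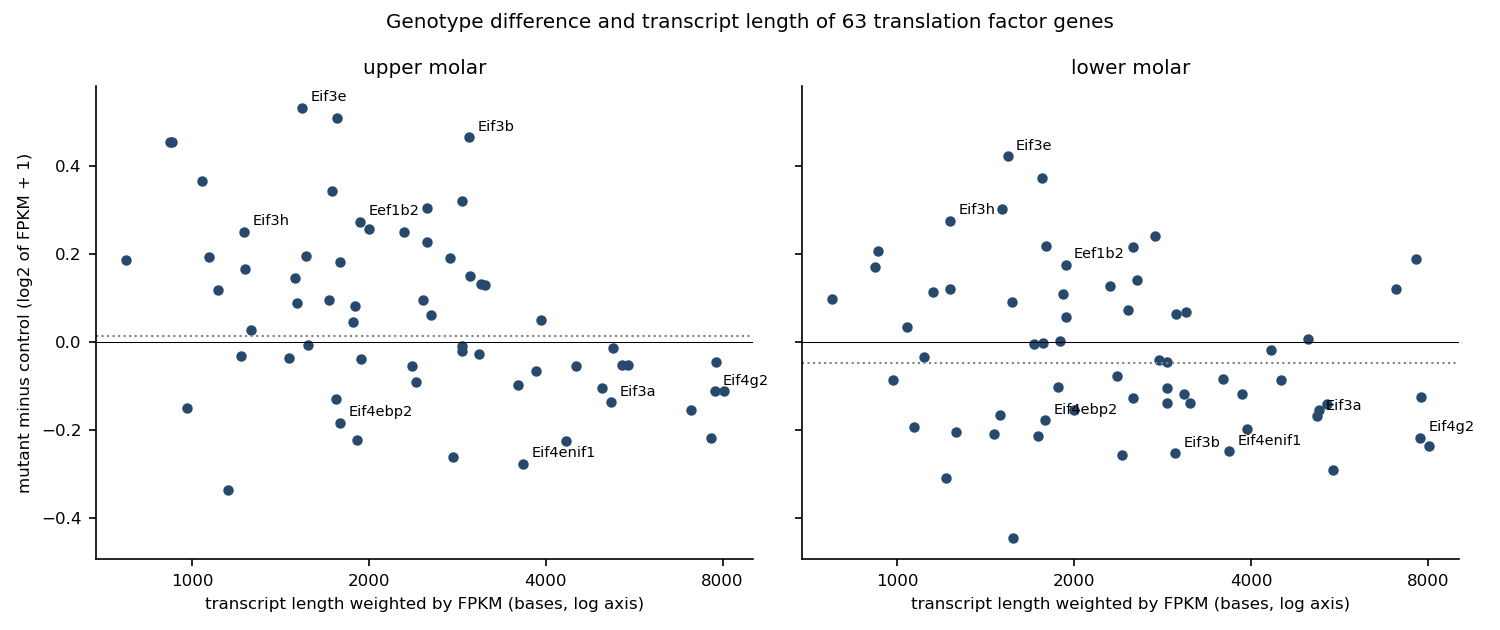
Log2 difference, mutant minus control, of 63 translation factor genes against transcript length in bases (log axis), in the upper molar (left) and lower molar (right); the dotted line is the median of all genes tested. Short transcripts such as those of Eif3e and Eif3h lie above the line in both panels and long ones such as those of Eif3a and Eif4g2 lie below it. Other genes go against this in both panels. The short Eif4ebp1, Eif1 and Eif2b2 lie below the line and the longer Eef2 lies above it.

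Start codon selection and subunit joining is the work of 7 of the genes. Their median log2 difference was -0.01, 2 were higher at an unadjusted p under 0.05 and none was called. Eif1, the factor that guards start codon fidelity and the most abundant of them, read 37.4, 38.0, 36.6 and 30.5 FPKM, with the mutant lower molar lowest. Eif1ax, the X-linked gene of eIF1A, which promotes scanning, read 16.2, 17.1, 22.5 and 19.9 FPKM, so both mutant libraries stood above both controls. Its difference was 0.33 ± 0.114 (limma, unadjusted p = 0.024, adjusted p = 0.307), from between 196 and 310 approximate reads per library. Its autosomal copy Eif1a read 8.46, 9.68, 10.8 and 9.34 FPKM, and Eif1ax made up between 63.9% and 68.1% of the pair. Eif1b, a close copy of Eif1, read 9.10, 11.1, 12.8 and 12.6 FPKM, a difference of 0.31 ± 0.119 (limma, adjusted p = 0.349). The joining factors Eif5 and Eif5b and the 60S factor Eif6 differed by between -0.09 and -0.01.

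Initiator tRNA is carried by eIF2, whose alpha, beta and gamma subunits are made by Eif2s1, Eif2s2 and the sex-linked pair Eif2s3x and Eif2s3y, while Eif2a and Eif2d can deliver tRNA without it. The 6 genes had a median of 0.05 and none was called. Eif2a was the most abundant, at 25.2, 28.0, 30.2 and 30.6 FPKM, a difference of 0.19 (limma, adjusted p = 0.505). Eif2s2 read 25.04, 28.2, 29.5 and 25.8 FPKM and Eif2s1 12.9, 13.0, 14.2 and 11.7 FPKM, a ratio of alpha to beta between 0.455 and 0.516. Eif2s3x (chrX:91434048-91457990 on mm9) read 24.3, 24.3, 22.6 and 22.8 FPKM. Its Y-linked copy Eif2s3y (chrY:347055-365037) read 4.06, 4.90, 6.20 and 4.89 FPKM, the mutant upper molar standing above the other libraries, and thus made up 14.3%, 16.8%, 21.5% and 17.6% of the pair.

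Of the 40-base words of the longest protein-coding Eif2s3x transcript, 36.5% also occur in transcripts of other genes, among them the pseudogene Eif2s3x-ps1. The longest Eif2s3y transcript shares 0 of its words with any other gene, Eif2s3x included. Other Y-linked genes were read in every library and the X-inactivation RNA Xist was near 0, at 0, 0.011, 0.028 and 0.019 FPKM. Ddx3y read 5.02, 5.10, 5.62 and 5.37 FPKM, Kdm5d 4.36, 4.13, 4.27 and 3.71 FPKM, and Uty 2.63, 2.24, 1.93 and 1.92 FPKM. The 4 pools therefore gave the same pattern of sex-linked RNA, and none of the 6 sex-linked genes tested was called by genotype. The difference of Eif2s3y was 0.25 ± 0.147 (limma, adjusted p = 0.515), from 0.51 between upper molars and -0.001 between lower ones. It came from between 94 and 163 approximate reads per library.

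eIF2B, made by 5 genes, recharges eIF2 with GTP and is the enzyme that phosphorylated eIF2 blocks. The subunits read between 1.89 and 10.9 FPKM and differed by a median of 0.07, with none called. Eif2b2, the beta subunit and most abundant, read 9.92, 10.9, 9.87 and 7.75 FPKM, a difference of -0.23 ± 0.135 (limma, adjusted p = 0.535). The upper molars differed by -0.01 and the lower molars by -0.44, the lowest value of any member in that comparison. The 4 eIF2 alpha kinases, which respond to heme (Eif2ak1), double-stranded RNA (Eif2ak2), unfolded protein (Eif2ak3) and uncharged tRNA (Eif2ak4), read lower in the mutant on average in 4 of 4, as deposited and after rescaling, with a median of -0.10 and none called. Eif2ak1 led with 11.99, 11.2, 9.85 and 10.8 FPKM, and Eif2ak3 was lowest with 1.36, 1.76, 1.27 and 1.60 FPKM.

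eIF3, the largest initiation factor, holds the small subunit, eIF2 and eIF4F together, and its 13 genes carried both the highest and one of the lowest genotype differences that recurred in both molars. Mutant averages were higher for 9 of the 13 and lower for 4, as deposited and after rescaling, with a median of 0.04, 2 higher at an unadjusted p under 0.05 and none called. Eif3e (chr15:43081586-43114282 on mm9, 1 transcript of 1541 bases), a subunit with a PCI domain known also as Int6, read 28.6, 29.2, 41.9 and 39.5 FPKM. Both mutant libraries stood above both controls, and the 2 libraries of a genotype differed far less than the genotypes. The log2 difference was 0.48 ± 0.104, with an interval from 0.23 to 0.73 (limma, unadjusted p = 0.00276, adjusted p = 0.139). Upper molars differed by 0.53 and lower molars by 0.42, where counting error of between 578 and 958 approximate reads gives ± 0.149 and ± 0.152. Of the 40-base words in the longest protein-coding Eif3e transcript, 31.6% also occur in transcripts of other genes, mostly processed copies of it.

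Eif3h (chr15:51618109-51697007 on mm9), a subunit with an MPN domain, read 68.5, 68.0, 81.7 and 82.5 FPKM, with no overlap between genotypes and little difference between molars. Its difference was 0.26 ± 0.100 (limma, unadjusted p = 0.0344, adjusted p = 0.348). Eif3a, the largest subunit and a scaffold of the complex, went the other way with 53.3, 54.5, 48.4 and 48.4 FPKM, again without overlap, a difference of -0.15 ± 0.101 (limma, adjusted p = 0.577). The level of Eif3e per unit of Eif3a, both in FPKM, was therefore 0.537 and 0.535 in the controls and 0.865 and 0.815 in the mutants, and that of Eif3h was 1.285, 1.246, 1.69 and 1.70. As deposited, the Eif3a transcript has 5176 bases, against 1541 for Eif3e and 1228 for Eif3h. Both ratios thus set a short mRNA against a long one. They also set genes picked as high in the mutant against one picked as low, so they were bound to part the genotypes. Per unit of Eif3d the level of Eif3e was 1.10, 1.36, 1.89 and 1.70, and per unit of Eif3c it was 0.764, 0.79, 1.12 and 1.18.

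The other 10 subunits showed smaller or less regular differences. Eif3i, one of the most abundant, read 72.2, 78.9, 78.5 and 77.1 FPKM, so that the control upper molar stood lowest and the other 3 were alike. Eif3f, the other subunit with an MPN domain, read 44.5, 44.5, 47.4 and 55.1 FPKM, with the mutant lower molar highest, a difference of 0.20 ± 0.109 (limma, adjusted p = 0.505). Eif3m read 25.3, 23.3, 28.5 and 25.4 FPKM and Eif3k 41.5, 38.4, 47.4 and 41.2 FPKM, and 48.9% of the words of Eif3m occur in other genes. Eif3b, which carries an RNA recognition motif and binds Eif3g and Eif3i, read 8.37, 11.7, 11.9 and 9.68 FPKM, lowest in the control upper molar. Eif3g read 33.2, 42.8, 38.1 and 37.4 FPKM, again with the control upper molar lowest. In these 2 genes the upper molar of the mutant stood above its control and the lower molar below.

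**Figure D4:**
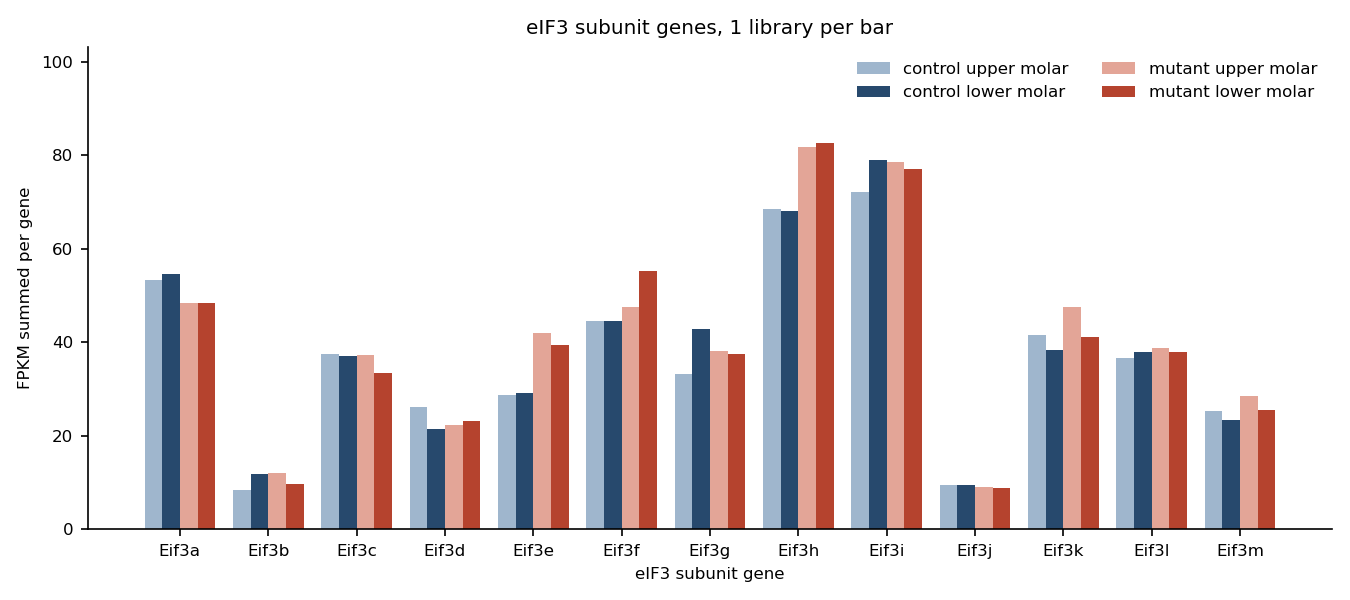
FPKM of the 13 eIF3 subunit genes, 1 bar per library, with light and dark blue for control upper and lower molar and light and dark red for mutant upper and lower molar; there are no error bars because each bar is 1 library. Eif3e and Eif3h have both red bars above both blue bars, Eif3a has both below, and Eif3b and Eif3g have their lowest bar in the control upper molar.

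The cap-binding complex eIF4F joins the cap-binding protein eIF4E, the scaffold eIF4G and the helicase eIF4A, helped by eIF4B and eIF4H. Mutant averages were higher for 3 of the 10 genes tested and lower for 7, as deposited and after rescaling, with a median of -0.08 and none called. Eif4a1, the main helicase, read 115, 117, 119 and 109 FPKM, and its copy Eif4a2 read 27.9, 30.3, 32.1 and 36.0 FPKM. The mutant values of Eif4a2 both lay above the controls, a difference of 0.22 ± 0.103 (limma, adjusted p = 0.439), and the level of Eif4a1 per unit of Eif4a2 was 4.13, 3.86, 3.71 and 3.03. Eif4a2 was read as 3 transcripts holding 48.4%, 47.0% and 4.6% of its FPKM, and 66.6% of the words of Eif4a1 also occur in other genes.

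Among the scaffolds, Eif4g2, an eIF4G relative that works without eIF4E, read 79.0, 76.5, 73.0 and 65.7 FPKM, a difference of -0.16 ± 0.102 (limma, adjusted p = 0.549). Eif4g1 read 29.9, 30.5, 28.8 and 27.5 FPKM and Eif4g3 20.2, 21.7, 19.4 and 17.5 FPKM. All 3 scaffold genes had both mutant values below both controls, as did 23.1% of all genes tested, also after rescaling, where 21.1% did. Between upper molars, Eif4g1 differed by -0.052 and Eif4g3 by -0.053, within counting error of ± 0.085 and ± 0.103. Between lower molars they differed by -0.141 and -0.291, beyond ± 0.087 and ± 0.105. The helicase cofactor Eif4h read 41.1, 43.1, 38.6 and 35.9 FPKM, a difference of -0.17 (limma, adjusted p = 0.546). Eif4e itself read 24.1, 25.5, 23.8 and 23.6 FPKM, and its copy Eif4e3 4.14, 4.59, 5.36 and 5.49 FPKM, a difference of 0.26 ± 0.110 (limma, unadjusted p = 0.0512, adjusted p = 0.381).

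The 4 genes whose proteins hold eIF4E were lower in the mutant on average, as deposited and after rescaling, with a median of -0.15, 1 at an unadjusted p under 0.05 and none called. Among them, Eif4ebp3 rested on between 19 and 25 approximate reads per library, and 66.0% of its words also occur in another gene. It differed by -0.335 between upper and 0.113 between lower molars, within counting error of ± 0.856 and ± 0.837. Eif4ebp2 (chr10:60895245-60915417 on mm9) read 35.5, 35.7, 31.1 and 31.5 FPKM, a gap between genotypes and near equality between molars, with a difference of -0.18 ± 0.102 (limma, adjusted p = 0.511). It supplied between 81.3% and 83.0% of the FPKM of the 3 4E-binding protein genes. Eif4ebp1 read 6.48, 5.94, 5.75 and 5.53 FPKM and Eif4ebp3 1.68, 1.38, 1.12 and 1.57 FPKM. The summed level of the 3 per unit of Eif4e was 1.81 and 1.69 in the controls and 1.60 and 1.63 in the mutants. Eif4enif1, which carries eIF4E into the nucleus, read 16.3, 16.5, 13.3 and 13.8 FPKM, a difference of -0.26 ± 0.105 (limma, unadjusted p = 0.0422, adjusted p = 0.362).

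The split of Eif4enif1 among its 4 transcripts was unstable, and its estimates in the mutant upper molar carry a failed status in the deposited table although values are listed. The 3694-base transcript was listed at 10.7, 0.003, 0.093 and 10.2 FPKM and the 3679-base one at 0.004, 9.53, 6.77 and 0.004 FPKM, while their sum with the others gave the even totals above. Without the mutant upper molar, in a fit with no term for the molar, the difference of Eif4enif1 was -0.24. No other translation factor gene had a failed estimate.

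Elongation factor genes ranged from 0 FPKM for Eef1a2 to the highest level of the family for Eef1a1. Eef1a1 (chr9:78326261-78329531 on mm9), which carries aminoacyl-tRNA to the ribosome, read 949, 1041, 1077 and 1212 FPKM and held between 32.8% and 37.8% of the FPKM of all 66 genes. Its rank among all gene symbols was 5, 5, 5 and 4. Its mutant values lay above both controls, a difference of 0.20 ± 0.092 (limma, unadjusted p = 0.066, adjusted p = 0.422), and 69.0% of its words also occur in other genes, the highest share among the members. The exchange factor subunits Eef1b2 and Eef1g read 50.7, 55.6, 61.5 and 62.9 FPKM and 199, 214, 228 and 228 FPKM, the mutant libraries again above the controls. Eef1d read 16.8, 16.4, 18.0 and 16.3 FPKM, and Eef1e1, whose protein also sits in the tRNA synthetase complex, read 3.52, 4.37, 4.83 and 4.50 FPKM. All 5 eEF1 genes tested were higher in the mutant on average, as deposited and after rescaling, with a median of 0.20 and none called. Eef1d differed by 0.095 between upper and -0.005 between lower molars, within counting error of ± 0.196 and ± 0.205. Eef1e1 differed by 0.365 and 0.035, within ± 0.524 and ± 0.507. Of the words of Eef1g, 66.4% also occur in other genes.

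Eef2, the translocase, read 226, 237, 247 and 249 FPKM, a difference of 0.10 (limma, adjusted p = 0.711), and its kinase Eef2k, which switches it off, read 2.71, 2.49, 2.65 and 2.21 FPKM. Eif5a, the hypusine-bearing factor, read 164, 168, 167 and 146 FPKM, with the mutant lower molar lowest. Its copy Eif5a2 read 1.47, 1.29, 1.30 and 1.30 FPKM, so that Eif5a stood between 112 and 131 times higher in every library. Neither pair was called, and the medians were 0.01 for eEF2 and its kinase and -0.07 for the eIF5A pair. Among the genes of the class with other roles, the exon junction helicase Eif4a3 read 29.4, 27.2, 28.7 and 23.4 FPKM, and the Argonaute Eif2c2 read 11.8, 12.3, 10.8 and 10.3 FPKM, a difference of -0.17 (limma, adjusted p = 0.552).

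Counting error alone could be set against each difference. In both molars and in the same direction, 7 genes read higher beyond their 95% counting error (Eef1a1, Eef1b2, Eef1g, Eef2, Eif3e, Eif3h and Eif4a2), where 3.70% of all genes did, and 4 read lower (Eif3a, Eif4ebp2, Eif4enif1 and Eif4g2), where 6.07% did. Genes with many reads pass this rule more easily, and amplified reads are not independent molecules, so it covers counting error only. Between upper molars 17 were higher and 6 lower by this rule, against 12.3% and 11.1% of all genes. Between lower molars 8 were higher and 19 lower, against 8.21% and 17.5%. Eif3b and Eif3g passed it with a higher value in the mutant upper and a lower value in the mutant lower molar, as did 1.32% of all genes, and 0 members showed the reverse, as did 0.324%.

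The second comparison asked which of the genes differed between the lower and the upper molar. None of the 63 was called by limma, with 0 higher and 0 lower, against a background of 0.724% (76 of 10502 genes, 0.390% higher and 0.333% lower). At an unadjusted p under 0.05 there was 1 gene, or 1.59%, against 10.2% of all genes (4.11% higher and 6.12% lower). The median difference was 0.001 and 32 genes were higher and 31 lower in the lower molar, a split that became 43 and 20 after rescaling by median ratios. The median of all genes was -0.04 as deposited and -0.01 after rescaling. All 63 intervals lay within a 2-fold difference and 59 within 0.5 on the log2 scale. Within the control and within the mutant, no member differed 2-fold between molars, where 0.971% and 1.28% of all genes did.

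Eif1ad, the member with the largest difference in this comparison, read 5.13, 6.68, 5.55 and 7.08 FPKM, both lower molars above both upper ones. Its difference, lower minus upper, was 0.31 ± 0.107 (limma, unadjusted p = 0.023, adjusted p = 0.374), from between 166 and 246 approximate reads per library. Eif2ak3, the kinase of the unfolded protein response given above, differed by 0.21 ± 0.145 (limma, adjusted p = 0.713). Eef1a1 and Eif4a2 read higher in the lower molar of both genotypes, by 0.13 and 0.17 and by 0.12 and 0.16 in control and mutant, but their control lower values lay below their mutant upper ones. The lowest values in the lower molar were those of Eif4a3 with -0.20 ± 0.108 (limma, adjusted p = 0.619), Eif3k with -0.15 ± 0.103 (limma, adjusted p = 0.704), Eif3m with -0.14 and Eef2k with -0.14.

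Genes with both lower molar values above both upper ones numbered 4 (Eif1ad, Eif2ak3, Eif2ak4 and Eif4e2), where 12.2% of all genes did so, and 6 had both below (Eef1d, Eef2k, Eif2b1, Eif3c, Eif3k and Eif4a3), where 21.2% did so. By direction alone, the lower molar was higher in both genotypes for 14 genes and lower in both for 10, where it was so for 20.8% and 35.0% of all genes. In 28 genes it was higher in the control and lower in the mutant, and in 11 the reverse, against 28.2% and 15.7%. After rescaling, genes without overlap numbered 7 and 2, against 15.9% and 16.8% of all genes. The 63 genes had a median absolute molar difference of 0.11 in the control and 0.10 in the mutant, against 0.13 and 0.15 over all genes tested. By counting error, 11 were higher and 2 lower in the control, against 7.71% and 8.03% of all genes, and 5 were higher and 12 lower in the mutant, against 6.79% and 19.3%.

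**Figure D5:**
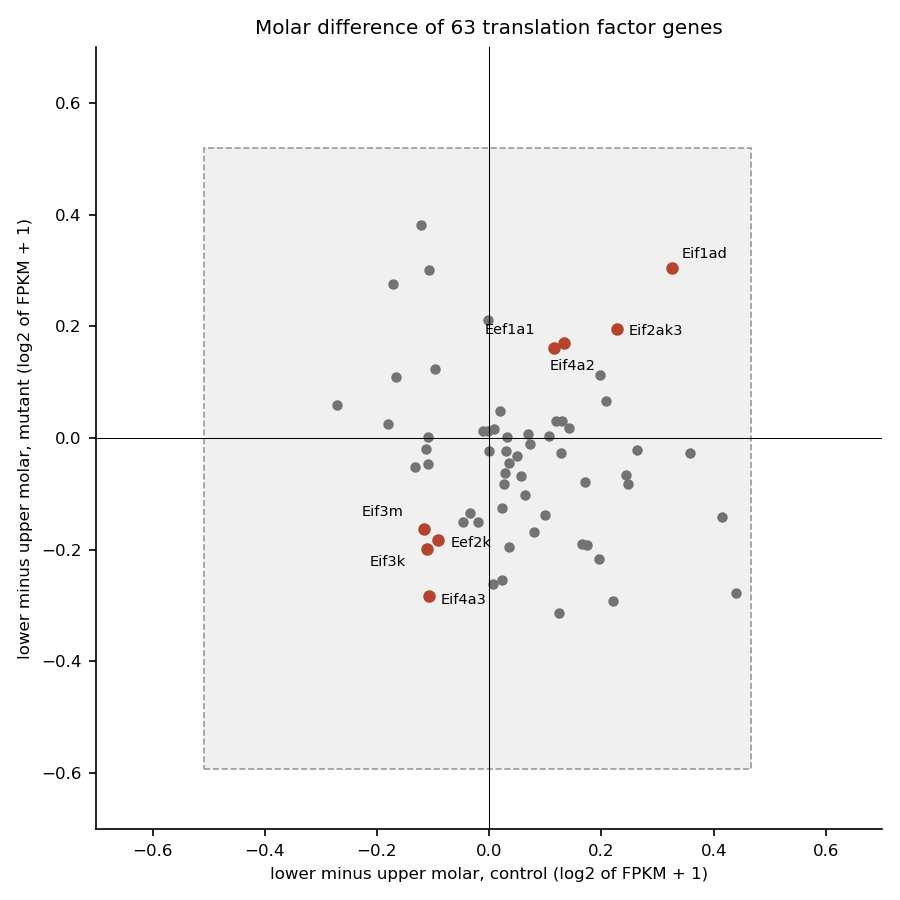
Log2 difference, lower minus upper molar, of 63 translation factor genes in the control (horizontal axis) against the mutant (vertical axis), 1 library per point and axis end; named genes are in red and the shaded box spans the central 95% of all 10502 genes. All points lie inside the box, with Eif1ad at 0.33 and 0.30 farthest out among genes that were higher in the lower molar of both genotypes.

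Other genes of translation and its control were taken as 6 lists, and limma called 0 of them by genotype or by molar in each. Termination and recycling (8 genes) had a median genotype difference of -0.04 and 0 genes at an unadjusted p under 0.05; the largest were the rescue factor Pelo at 0.28 and the recycling factor Denr at 0.20. Enzymes that modify eIF5A and eEF2 and the poly(A)-binding group (14 tested of 16) had a median of 0.03 and 0 higher and 1 lower gene at that level. That gene was Pabpc1, the main poly(A)-binding protein, at 238, 251, 204 and 211 FPKM, a difference of -0.24 ± 0.096 (limma, adjusted p = 0.37), while Dohh, which completes hypusine, had 0.29. The mTORC1 pathway (12 of 14) had a median of -0.01 and 0 such genes, with Larp1, a repressor of pyrimidine-led mRNAs, at -0.21 and Tsc1 at -0.21.

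The targets of the stress response that starts with eIF2 phosphorylation (12 tested of 16) had a median of -0.10, with 1 higher and 1 lower gene at an unadjusted p under 0.05. Ddit3, the factor CHOP, read 2.15, 1.76, 3.26 and 2.58 FPKM, a difference of 0.40 ± 0.125 (limma, adjusted p = 0.263). Shmt2, of mitochondrial serine metabolism, read 18.3, 19.9, 14.7 and 15.5 FPKM, a difference of -0.32 ± 0.105 (limma, adjusted p = 0.285). Atf4, whose mRNA is translated when eIF2 is phosphorylated, read 28.2, 29.6, 26.5 and 26.0 FPKM. The 22 cytosolic tRNA synthetase genes had a median of -0.01 and 1 gene in each direction, Sars at 0.31 and Iars at -0.31. The 9 mitochondrial translation factors had a median of 0.04 and 0 such genes, with Mtrf1l at -0.28 and Mtrf1 at 0.25. By molar, the medians of the 6 lists lay between -0.13 and 0.01, and Vldlr, Farsa and Mrrf were lower in the lower molar at an unadjusted p under 0.05.

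Other measures moved with genotype in the same libraries. Proliferation genes (9) summed to 306, 310, 275 and 217 FPKM, and 9 of 9 were lower in the mutant on average, with a median of -0.33, 5 at an unadjusted p under 0.05 and none called. Endothelial markers summed to 38.7, 36.7, 28.1 and 33.2 FPKM, 6 of 6 being lower with a median of -0.17. Red blood cell markers summed to 656, 588, 614 and 733 FPKM, so the sum was lower in the mutant upper and higher in the mutant lower molar. All 5 of them that were tested were higher in the mutant on average, with a median of 0.13 and none called. The neuronal sum of 2.37, 3.87, 7.98 and 6.86 FPKM came mostly from Nefl at 0.632, 1.52, 6.89 and 4.15 FPKM, with 5 of the 6 markers under 1 FPKM on average. The part of cell makeup and of cycling cells in the values of the translation factors was not tested.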

How the data were processed

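RNA of laser-captured molar mesenchyme was amplified (NuGEN Ovation RNA-Seq v2) and sequenced from Nextera libraries, per the labels' protocols. Reads were aligned to mm9 with TopHat 1.4.1 and Bowtie 0.12.7, per the submitters' processing notes; the tables look like Cufflinks output, whose version, strandedness and handling of multiply aligned reads are not given in the sources used here. The authors' tables give FPKM per RefSeq transcript, normalised to mapped reads, and the deposited coverage (signal) per transcript, per the file headers. Reads shared by near-identical genes could affect single values.

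FPKM was summed per gene symbol. A gene's position spans its loci on mm9, counted from 1. Approximate reads are coverage times length divided by 44.2 bases, the mean over libraries of the median of single-read genes, and the ratio of coverage to FPKM put the mapped reads of a library between about 13000000 and 14900000. The counting error of a log2 ratio is 1.96 times its standard error. Differences were taken on log2(FPKM + 1), a pseudocount of 1, which understates changes of low genes, for the 10502 genes that averaged 1 FPKM or more. limma 3.58.1 in R 4.3.3 was fitted to all of them on additive terms for genotype and molar, using an intensity trend, two-sided, with Benjamini-Hochberg adjustment at 0.05, and was tested on simulated data. The prior added 5.77 degrees of freedom to 1 residual. The labels do not say that libraries of a genotype came from separate embryos.

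The genes, the roles and the lists of other genes were chosen with earlier results of these data known. Genes named with values were the most abundant of each role; the 6 highest and 6 lowest in the mutant and 4 highest and 4 lowest in the lower molar, by the smaller of the within-group differences of the same sign; fixed paralog pairs and repressors; genes under 1 FPKM; and, in each list of other genes, the 2 with the largest effect. Further members are named to complete a role, after their values were seen. Shared sequence is the share of 40-base words of a gene's longest protein-coding transcript (GENCODE M21, GRCm38) found in transcripts of other genes. That transcript can differ from the one in the authors' tables, as for Eif1ax with 5172 against 926 bases. Start windows are from RefSeq, GRCm38.p6, and no coordinates were converted. Protein sequences were not used here. Alternatives were other pseudocounts, filters, scaling, terms and libraries left out. Fits with 1 library left out had no term for the other factor.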

Additional observations from a re-analysis of the deposited data

Results flagged for a closer look

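In Eif3b, an eIF3 subunit with an RNA recognition motif, the mutant was above the control by 0.47 on the log2 scale in the upper molar (8.37 to 11.9 FPKM) and below it by 0.25 in the lower (11.7 to 9.68 FPKM), differences that lie beyond counting error in opposite directions. The lower molar's genotype difference minus the upper's was -0.717. In Eif3g, another subunit, the 2 differences were 0.19 (33.2 to 38.1 FPKM) and -0.19 (42.8 to 37.4 FPKM), and the lower minus the upper was -0.386. Over all genes tested, 1.32% showed this pattern. Each value is 1 library, the difference between molars was not tested, and in both genes the control upper molar read lowest.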

How the results depend on the processing

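No translation factor gene was called by genotype or by molar under any alternative run, and the smallest adjusted p among them was 0.0599 (Eif3e, limma, mean of at least 5 FPKM). Over 20 named gene and comparison pairs, 217 of 217 alternative values kept their direction and their side of the threshold. These genes were picked for differences of the same sign in both groups, and none was called. Changes of filter, trend or terms leave a gene's difference itself as it was. The tally was thus largely fixed in advance and does not measure how stable the values are. Leaving out 1 library still moved several of these values by over 1.5 times. Those fits also dropped the term for the other factor, which left genotype and molar unbalanced. Without the mutant lower molar, for example, the molar difference of Eef1a1 set the control lower molar against both upper ones. Within the control alone it was 0.133. The ranges below therefore mix the loss of 1 library with the loss of that term. By genotype, Eef1a1 (0.20) lay between 0.115 and 0.286, Eif4a2 (0.216) between 0.135 and 0.297 and Eif4g2 (-0.164) between -0.240 and -0.089, in each case nearest to 0 without the mutant lower molar and farthest without the mutant upper. By molar, Eef1a1 (0.152) lay between 0.042 and 0.261, Eif4a2 (0.139) between 0.019 and 0.258 and Eif4a3 (-0.195) between -0.300 and -0.091, nearest to 0 without the mutant lower and farthest without the control lower molar, as was Eef2k (-0.137) between -0.196 and -0.078. Eif3k (-0.154) lay between -0.248 and -0.061 and Eif3m (-0.139) between -0.222 and -0.056, nearest to 0 without the mutant upper and farthest without the control upper molar. The members' median stayed between -0.032 and 0.021 by genotype and between -0.037 and 0.038 by molar, so its sign was not fixed. The count of all genes called was not stable. By genotype, the 84 genes became 0 with no filter on low values (1590 at an unadjusted p under 0.05), 146 at a mean of at least 5 FPKM, 12 after rescaling, 133 without transcripts under 300 bases, 38 with no intensity trend and 7 with no term for the molar. By molar, the 76 genes became 0, 127, 29 and 139 under the first 4 of these, and 12 with no term for the genotype. Leaving out 1 library gave between 5 and 18 genes by genotype (5, 8, 18 and 10 with the control upper, control lower, mutant upper and mutant lower molar left out in turn) and between 0 and 21 by molar (14, 3, 21 and 0). There the lone library of an arm is assumed to vary like the other group. Fewer samples were also fitted, with no term for the other factor. For the other changes the cause was not tested. Without a filter on low values, 1402 genes had an unadjusted p under 0.05 by molar, and without the mutant lower molar 407 did. No paired analysis was possible because the labels give no replicate numbers that would pair embryos or pools; the term for the molar does compare the genotypes within each molar. The depth limits genes under 1 FPKM, such as Eif2c4.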
